A study of Mus musculus with 12 samples.

Results

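Calcium-binding proteins and neuropeptides are used to tell classes of spinal interneurons apart, and 10 such genes are described here across 3 groups of mouse spinal cord. They were chosen by symbol, as every probe set (a set of short probes for 1 transcript) that the platform annotation assigns to Pvalb, Calb1, Calb2, Sst, Npy, Tac1, Penk, Pdyn, Nts or Cck. All 10 genes, out of 12393 genes with a single symbol, were on the array, through 11 probe sets. Of these, 10 probe sets, 1 per gene, passed the filter on low signal, and the second Calb1 probe set did not.

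The mice belong to a model of spinal muscular atrophy (SMA) in its severe form, a disease of motor neurons in which too little survival motor neuron protein is made. All 3 groups were of 1 line on an FVB.Cg background and carried the human transgenes Tg(SMN2)89Ahmb and Tg(SMN2*delta7)4299Ahmb on both alleles (SMN2+/+ and SmnΔ7+/+), together with the mouse allele Smn1tm1Msd. The 4 wildtype mice kept 1 intact mouse Smn allele (mSmn+/−) and received vehicle, so they are carriers of the null allele rather than unmodified animals. The 4 SMA vehicle mice and the 4 SMA ceftriaxone mice had no intact mouse Smn allele (mSmn−/−). Ceftriaxone, a beta-lactam antibiotic known to raise the astrocyte glutamate transporter encoded by Slc1a2, was injected into the peritoneum at 200 mg/kg daily from day 5. All cords were taken at 13 days. The vehicle groups are called untreated in 1 label, the labels name both whole cords and lumbar segments, and the sex of the mice is not given.

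Each value is a MAS5 signal, the linear hybridisation intensity that Affymetrix software computes per probe set, scaled to an equal trimmed mean on each array. Fold changes are differences of log2(signal + 16), which understate the change of dim genes. Adjusted p-values are from limma, a linear model fitted over all 12 arrays, with Benjamini-Hochberg adjustment over 13575 probe sets and a threshold of 0.05. No label says that the arrays came from separate litters, so p-values measure the spread between these 12 samples. In bulk cord, fewer cells of a type and less RNA per cell cannot be told apart.

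Signals of the targeted gene Smn1 were 263.4 to 414.3 on wildtype arrays, 3.6 to 5.7 on SMA vehicle arrays and 3.3 to 15.8 on SMA ceftriaxone arrays. Wildtype array 2 stood apart: its correlation with arrays 1, 3 and 4 was 0.924 to 0.93, while these 3 correlated with each other at 0.986 to 0.989, and it carried thymus genes (Rag1 signal 7862.5, Cd3d 5575.8). It was the lowest wildtype array for all 10 genes described here, at 45.3% to 77.0% of the mean of the other 3 (median 62.2%), while the median over all tested probe sets was 94.35%. Its pan-neuronal marker sum was 69.1% of that mean, and values without it are given below where it changes a call, or moves a member's value by much. Xist, the RNA that coats the silenced X chromosome in female cells, exceeded a signal of 1000 on 1 wildtype, 2 SMA vehicle and 4 SMA ceftriaxone arrays. Signals of the Y-linked gene Eif2s3y were 1.2 to 523.7, 0.3 to 442.9 and 0.5 to 5 in the same order. By these genes all ceftriaxone arrays read as female and the other groups as mixed. Sex is therefore partly tied to treatment in the comparisons with the ceftriaxone group. The ratio of 3′ to 5′ signal, a measure of RNA quality, was 0.720 to 0.761 for Gapdh. For Actb it was 1.19 to 1.44 in wildtype, 1.206 to 1.242 in SMA vehicle and 1.195 to 1.409 in ceftriaxone cords. Hoxd10, a Hox gene whose expression varies along the cord axis, had signals of 386.4 to 768.4 on wildtype arrays. On SMA vehicle arrays they were 1538.2 to 2411.1, and on SMA ceftriaxone arrays 804.5 to 1274.2. Whether the groups differed in the cord level taken was not tested.

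Parvalbumin, calbindin and calretinin (Pvalb, Calb1, Calb2) are EF-hand proteins that bind and buffer calcium. In the cord, parvalbumin marks subsets of inhibitory premotor and dorsal horn neurons, Calb1 marks neurons that include Renshaw cells, which inhibit motor neurons, and calretinin marks mainly superficial dorsal horn neurons. The peptides are cut from larger precursors, stored in dense-core vesicles and released to act on G protein-coupled receptors. In the dorsal horn, Sst and Tac1 (substance P) are found largely in excitatory neurons, Npy and Pdyn (dynorphin) in inhibitory ones or in both, and Penk (enkephalin), Nts (neurotensin) and Cck (cholecystokinin) in further subsets.

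Start sites of 7 of the 10 genes had an entry in the RefSeq promoter table (build GRCm38.p6; 250 bases before to 50 after the start): Pvalb, Sst, Npy, Tac1, Pdyn, Nts and Cck. They were searched on both strands for the cAMP response element TGACGTCA, for its half-site CGTCA, which the full element contains, and for the AP-1 motif TGAGTCA. The following 4 windows, each from the gene's first listed start, are shown 5′ to 3′: those of Sst, Cck and Tac1, peptide genes described below that hold the half-site, and that of Pvalb, which changed most. They were chosen with the matches seen. Capitals mark half-sites (both merge into the full element in Sst).
Sst (chr16:23890795-23891094, minus strand): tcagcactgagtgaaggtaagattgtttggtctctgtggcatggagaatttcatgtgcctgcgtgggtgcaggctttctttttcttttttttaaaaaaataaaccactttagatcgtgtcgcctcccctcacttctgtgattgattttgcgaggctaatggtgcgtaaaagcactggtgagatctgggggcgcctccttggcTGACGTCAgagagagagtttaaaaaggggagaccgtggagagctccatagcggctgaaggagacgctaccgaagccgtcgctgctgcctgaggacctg
Cck (chr9:121495645-121495944, minus strand): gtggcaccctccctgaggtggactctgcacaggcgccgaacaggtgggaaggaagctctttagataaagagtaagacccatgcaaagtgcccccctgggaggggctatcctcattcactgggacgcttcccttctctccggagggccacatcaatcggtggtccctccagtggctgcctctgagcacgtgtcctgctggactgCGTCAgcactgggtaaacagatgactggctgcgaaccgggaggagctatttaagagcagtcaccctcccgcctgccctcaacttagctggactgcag
Tac1 (chr6:7554811-7555110, plus strand): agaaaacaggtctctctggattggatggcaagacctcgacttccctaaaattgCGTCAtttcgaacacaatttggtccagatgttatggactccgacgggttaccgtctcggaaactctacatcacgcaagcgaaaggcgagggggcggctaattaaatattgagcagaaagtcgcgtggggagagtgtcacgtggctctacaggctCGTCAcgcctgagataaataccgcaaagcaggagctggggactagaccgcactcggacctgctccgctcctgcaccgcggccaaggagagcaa
Pvalb (chr15:78206351-78206650, minus strand): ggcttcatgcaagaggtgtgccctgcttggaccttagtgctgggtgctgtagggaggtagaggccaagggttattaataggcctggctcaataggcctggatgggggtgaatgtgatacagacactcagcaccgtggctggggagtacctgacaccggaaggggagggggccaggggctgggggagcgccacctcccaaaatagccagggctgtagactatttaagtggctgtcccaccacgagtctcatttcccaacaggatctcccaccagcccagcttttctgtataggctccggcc

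The Sst window holds the full element at -48, counted from the start site, and this motif occurs in 1.79% of all 32851 windows (2.03% of genes). Tac1 holds a half-site at -197 and another at -43, Cck holds 1 at -47, and Nts holds 1 at -166 with an AP-1 motif at -207. The half-site was therefore found in 4 of the 7 genes, against 23% of all 27025 genes (20.8% of windows), and the AP-1 motif occurs in 5.95% of genes (5.2% of windows). The Npy, Pdyn and Pvalb windows hold none of these letters. Of the 4 genes with a half-site, Sst, Tac1 and Cck rose in SMA vehicle cords and Nts did not pass. Npy and Pdyn, whose fitted rises were the largest of the peptide genes, and Pvalb, which fell, hold no half-site. Whether matches go with the changes was not tested. A match is a description of the sequence only: the arrays carry no measure of factor binding.

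Pvalb was the member that moved most. Its signals were 1164.0, 621.8, 1419.7 and 1538.5 for wildtype, 228.7, 165.5, 156.4 and 144.8 for SMA vehicle, and 670.1, 797.8, 408.7 and 849.5 for SMA ceftriaxone cords. Every SMA vehicle array lay below every other array, and the wildtype and ceftriaxone arrays overlapped only through wildtype array 2. Mean signal was 1186 ± 407 (SD, n = 4), 173.9 ± 37.5 and 681.5 ± 197 in the same order. Against wildtype, Pvalb in SMA vehicle cords fell by 2.60 ± 0.28 (SE) on the log2 scale, 6.08-fold (adjusted p = 9.83e-06). It rose in ceftriaxone against vehicle SMA cords by 1.85 ± 0.28, 3.59-fold (adjusted p = 0.000303). Against wildtype, the ceftriaxone group differed by -0.76 ± 0.28 (95% interval -1.35 to -0.16), which did not pass (adjusted p = 0.142). Without wildtype array 2 that difference was -1.04 ± 0.22 and passed (adjusted p = 0.012), and the fall in SMA vehicle cords was -2.88 ± 0.22 (adjusted p = 6.11e-07).

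Skeletal muscle also expresses Pvalb at high levels, so muscle genes were read beside it. Their summed signal over 20 genes was 1687.1 to 3956.0 for wildtype, 3763.2 to 7631.2 for SMA vehicle and 1222.3 to 1839.6 for SMA ceftriaxone cords. Most of the list was below the filter, and 2 of the 4 genes tested, Myl1 and Mylpf, passed it only through groups in which they were higher. The other two were Acta1, skeletal muscle actin, which moved against Pvalb, and Pygm, muscle glycogen phosphorylase, which moved with it. Acta1 rose by 2.63 in SMA vehicle cords and fell by 3.31 with ceftriaxone, while Pygm fell by 1.65 and rose by 1.65, all as log2 fold changes. Of 8 astrocyte genes, 5 also fell and 2 rose in SMA vehicle cords, beside 47.2% of all probe sets called. With ceftriaxone 5 of the 8 rose and 0 fell, beside 35.9%. Whether the Pygm signal came from muscle was not tested. Proprioceptive neurons of the dorsal root ganglion contain parvalbumin as well. Prph, the 1 gene of the ganglion list above the filter, which motor neurons express as well, did not pass in SMA vehicle cords (0.17, adjusted p = 0.531) and with ceftriaxone fell by 0.64 (adjusted p = 0.0299). The ganglion markers P2rx3, Scn10a and Avil had signals of at most 7, 32.7 and 85.5 on any array. They were not chosen as markers of proprioceptive neurons, so their low values do not measure those cells. The sum of 8 ganglion markers was 1023.5 to 1787.9, 1300.8 to 1950.9 and 944.4 to 1207.9 in the 3 groups. The part of muscle and ganglion RNA in the Pvalb difference was not tested.

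The brighter Calb1 probe set gave signals of 1195.8, 852.7, 1391.9 and 1235.7 for wildtype, 1373.1, 1535.6, 1541.1 and 1332.7 for SMA vehicle, and 1398.6, 976.1, 1096.8 and 904.4 for SMA ceftriaxone cords. The groups overlapped in every comparison. The difference of SMA vehicle from wildtype was 0.32 ± 0.15 on the log2 scale (95% interval -0.01 to 0.65, adjusted p = 0.0992), and 0.18 without wildtype array 2 (adjusted p = 0.23). In ceftriaxone against vehicle SMA cords, Calb1 fell by 0.41 ± 0.15, at the edge of the threshold (adjusted p = 0.0489). That call held in 8 of 23 other settings. It was lost without wildtype array 1 or 4, without any 1 of the 4 SMA vehicle arrays, and without ceftriaxone array 2, 3 or 4 (adjusted p = 0.0584 to 0.141). It was also lost after quantile normalization or median centring, without the filter or the intensity trend, with Xist as a covariate, and with the mean of both probe sets (adjusted p = 0.057 to 0.116). The dimmer Calb1 probe set had signals of 45.1 to 113.3 and was below the filter; fitted without a filter it gave log2 differences of -0.05 and -0.33 in the same comparisons (adjusted p = 0.9 and 0.381).

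Calb2 did not pass in any comparison. Its mean signal was 2455 ± 571 for wildtype, 2397 ± 231 for SMA vehicle and 2364 ± 136 for SMA ceftriaxone cords, with single arrays from 1645.4 to 2928.8. The SMA vehicle difference from wildtype was -0.01 ± 0.15 (log2, 95% interval -0.32 to 0.31, adjusted p = 0.979), and the ceftriaxone difference from vehicle was -0.02 (adjusted p = 0.943). Without wildtype array 2 the first of these was -0.19 (adjusted p = 0.075). Of the 3 calcium-binding genes, Pvalb thus passed in both comparisons with SMA vehicle cords, Calb1 in 1 and Calb2 in neither.

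**Figure D1:**
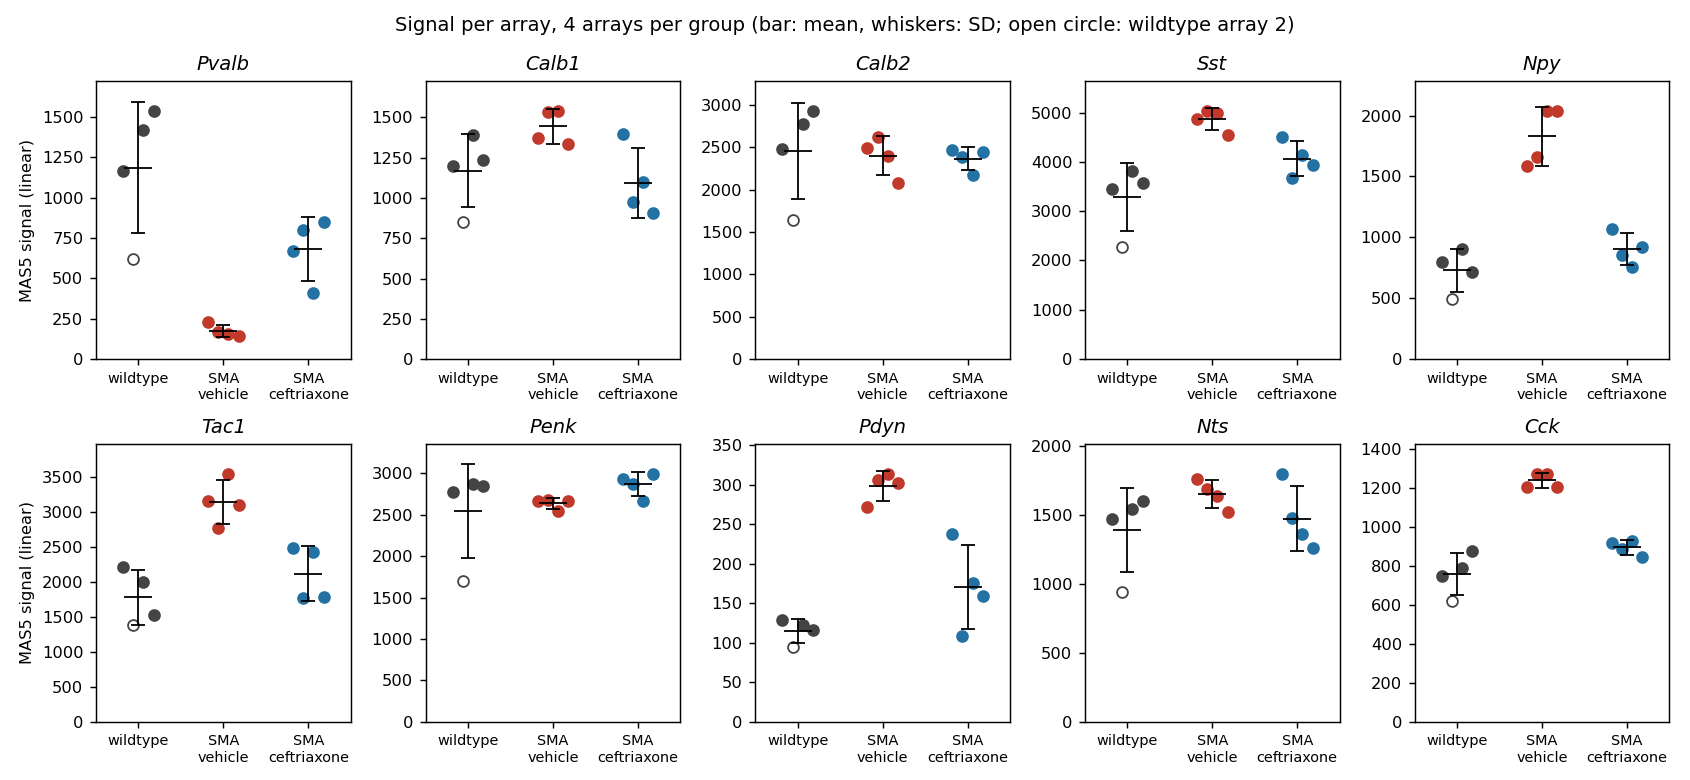
MAS5 signal (linear axis) of the 10 genes on every array, with 4 arrays per group, the group mean as a bar and the SD as whiskers, and wildtype array 2 as an open circle. The 4 SMA vehicle arrays lie lowest for Pvalb (144.8 to 228.7) and highest for Npy, Tac1, Pdyn, Cck and Sst.

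Among the peptide genes, Npy had the largest rise. Neuropeptide Y acts on inhibitory Y receptors of dorsal horn neurons. Its signals were 797.9, 493.9, 906.9 and 711.3 for wildtype, 1586.6, 1657.2, 2034.8 and 2039.2 for SMA vehicle, and 1068.8, 857.3, 753.8 and 924.5 for SMA ceftriaxone cords. All 4 SMA vehicle arrays lay above all others, and the wildtype and ceftriaxone arrays overlapped. Npy rose in SMA vehicle cords by 1.34 ± 0.17 on the log2 scale, 2.52-fold (adjusted p = 3.28e-05), and with ceftriaxone fell by 1.01 ± 0.17 (adjusted p = 0.00058). The rise was 1.17 without wildtype array 2. Sympathetic neurons also express Npy. The sum of 8 genes of sympathetic ganglion and adrenal medulla was 1059.5 to 1640.7 for wildtype, 679.1 to 890.9 for SMA vehicle and 1371.6 to 1515.0 for the ceftriaxone group. The 1 gene of that list above the filter, Ddc, fell by 1.27 in SMA vehicle cords (adjusted p = 0.000173). With ceftriaxone Ddc rose by 1.36 (adjusted p = 0.000242). Dbh, the marker of noradrenergic cells, had signals of 26.4 to 100.8. The part of such cells in the Npy difference was not tested.

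Pdyn encodes prodynorphin, whose peptides act on the kappa opioid receptor. Its signals were 128.8, 94.1, 122.0 and 115.7 for wildtype, 271.0, 305.5, 313.9 and 302.5 for SMA vehicle, and 237.2, 107.8, 176.0 and 159.6 for SMA ceftriaxone cords. The SMA vehicle arrays again lay above all others, and the ceftriaxone arrays were spread widely, with array 2 inside the wildtype range and array 1 the closest to the SMA vehicle group. The coefficient of variation was 6.30% in SMA vehicle and 31.3% in ceftriaxone cords. Pdyn rose in SMA vehicle cords by 1.27 ± 0.18 on the log2 scale, 2.41-fold (adjusted p = 9.65e-05), and with ceftriaxone fell by 0.80 ± 0.18 (adjusted p = 0.0043). Its wildtype mean log2 value, 7.03, is under the lowest mean kept, 7.14, so Pdyn passed the filter only through the SMA arrays, where it is higher. In the fit with no filter, which does not depend on that, adjusted p was 0.000227 and 0.00836 in the same comparisons. Ceftriaxone cords differed from wildtype by 0.47 ± 0.18 (adjusted p = 0.169), and without ceftriaxone array 2 by 0.65 (adjusted p = 0.0488).

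Penk, the other opioid precursor gene, which encodes the enkephalins, did not pass in any comparison. Its signals were 2779.2, 1702.2, 2869.4 and 2843.0 for wildtype, 2669.3, 2681.5, 2543.1 and 2661.1 for SMA vehicle, and 2934.4, 2874.6, 2665.2 and 2997.7 for SMA ceftriaxone cords. The groups overlapped, but without wildtype array 2 all SMA vehicle arrays lay below the other 3 wildtype arrays. The SMA vehicle difference from wildtype was 0.08 ± 0.14 (log2, 95% interval -0.21 to 0.38, adjusted p = 0.653), and -0.10 without wildtype array 2 (adjusted p = 0.124), so its sign rests on that array. Ceftriaxone against vehicle gave 0.12 (adjusted p = 0.527).

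Tac1 encodes substance P and neurokinin A, which act on tachykinin receptors. Its signals were 2208.0, 1381.3, 2001.6 and 1523.0 for wildtype, 3151.3, 2775.6, 3549.8 and 3099.8 for SMA vehicle, and 2487.8, 1764.5, 2431.6 and 1782.3 for SMA ceftriaxone cords. SMA vehicle arrays were the 4 highest, and the wildtype and ceftriaxone ranges overlapped. Tac1 rose in SMA vehicle cords by 0.84 ± 0.16 on the log2 scale (adjusted p = 0.000764) and with ceftriaxone fell by 0.58 ± 0.16 (adjusted p = 0.012).

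Cck encodes cholecystokinin, a peptide of excitatory dorsal horn neurons. Its signals were 747.5, 619.8, 792.1 and 875.6 for wildtype, 1207.2, 1271.9, 1275.5 and 1207.2 for SMA vehicle, and 920.2, 885.8, 931.3 and 844.5 for SMA ceftriaxone cords. The SMA vehicle arrays lay above all others, and the ceftriaxone arrays overlapped the upper end of the wildtype range. Cck rose by 0.71 ± 0.09 on the log2 scale, 1.63-fold (adjusted p = 5.27e-05), and with ceftriaxone fell by 0.46 ± 0.09 (adjusted p = 0.00211).

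Sst encodes somatostatin, an inhibitory peptide. Its signals were 3458.6, 2283.4, 3823.6 and 3573.0 for wildtype, 4870.4, 5037.4, 5002.2 and 4548.0 for SMA vehicle, and 4502.8, 3679.8, 4147.5 and 3941.6 for SMA ceftriaxone cords. SMA vehicle arrays lay above all wildtype and all ceftriaxone arrays. Sst rose in SMA vehicle cords by 0.59 ± 0.13 on the log2 scale (adjusted p = 0.0025). Ceftriaxone cords differed from vehicle by -0.26 ± 0.13 (95% interval -0.55 to 0.03), which did not pass although the groups did not overlap (adjusted p = 0.144). It passed without wildtype array 2 (adjusted p = 0.00493) and in a fit of those groups alone (adjusted p = 0.00777). Without that array the rise in SMA vehicle cords was 0.43 (adjusted p = 0.000189).

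Nts encodes neurotensin. Its mean signal was 1392 ± 307 for wildtype, 1654 ± 102 for SMA vehicle and 1475 ± 235 for SMA ceftriaxone cords, with single arrays from 938.7 to 1802.2 and overlap in each comparison. The SMA vehicle difference from wildtype was 0.27 ± 0.15 (log2, 95% interval -0.06 to 0.61, adjusted p = 0.164), and 0.10 without wildtype array 2 (adjusted p = 0.426). The ceftriaxone difference from vehicle was -0.17 (adjusted p = 0.406).

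For SMA vehicle against wildtype, 5 of the 10 genes rose (Npy, Pdyn, Tac1, Cck and Sst) and 1 fell (Pvalb). This share of 60% stands beside a background of 47.2% of all tested probe sets called, 24.9% higher and 22.3% lower. For 6 members the groups did not overlap, beside 42.5% of all probe sets, so the count called is near the background and is not a result about these genes. Leaving Pdyn out because of the filter gives 4 higher and 1 lower of 9 (55.6%). The median log2 fold change of the members was 0.46, against 0.015 over all probe sets, and the median size was 0.65, against 0.30. Leaving out wildtype array 2 gave 6 members called, beside 58.5% of all probe sets.

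For SMA ceftriaxone against SMA vehicle, Pvalb rose and 5 genes fell (Npy, Pdyn, Tac1, Cck and Calb1), again 60%, beside 35.9% of all probe sets called, 18.3% higher and 17.7% lower. The groups of 6 members did not overlap, beside 45.3% of all probe sets. Without Pdyn, 1 of 9 was higher and 4 were lower (55.6%). The median log2 fold change was -0.34, against -0.011 over all. Leaving out wildtype array 2 gave 7 members called, beside 50.2%. This comparison and SMA vehicle against wildtype share the SMA vehicle arrays, so opposite signs in the 2 are not independent of each other.

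For SMA ceftriaxone against wildtype, 0 of the 10 members passed limma's threshold, beside 4.21% of all probe sets, while 4 had an unadjusted p under 0.05. All groups overlapped, beside 11.6% of all probe sets that did not. The smallest adjusted p was 0.142, that of Pvalb, and differences ran from -0.76 for Pvalb to 0.47 for Pdyn. The ceftriaxone mean lay between those of the other groups for 7 of the 10 genes, the exceptions being Calb1, Calb2 and Penk. Leaving out wildtype array 2 gave 1 member called, Pvalb, beside 10.6%, and lowered the differences of Sst, Npy, Tac1 and Cck from 0.33, 0.32, 0.26 and 0.24 to 0.17, 0.15, 0.14 and 0.15. The difference of Penk went from 0.20 to 0.02, and that of Nts from 0.10 to -0.08. A p that misses the threshold does not show that the groups are alike: the interval for Pvalb excludes 0.

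**Figure D2:**
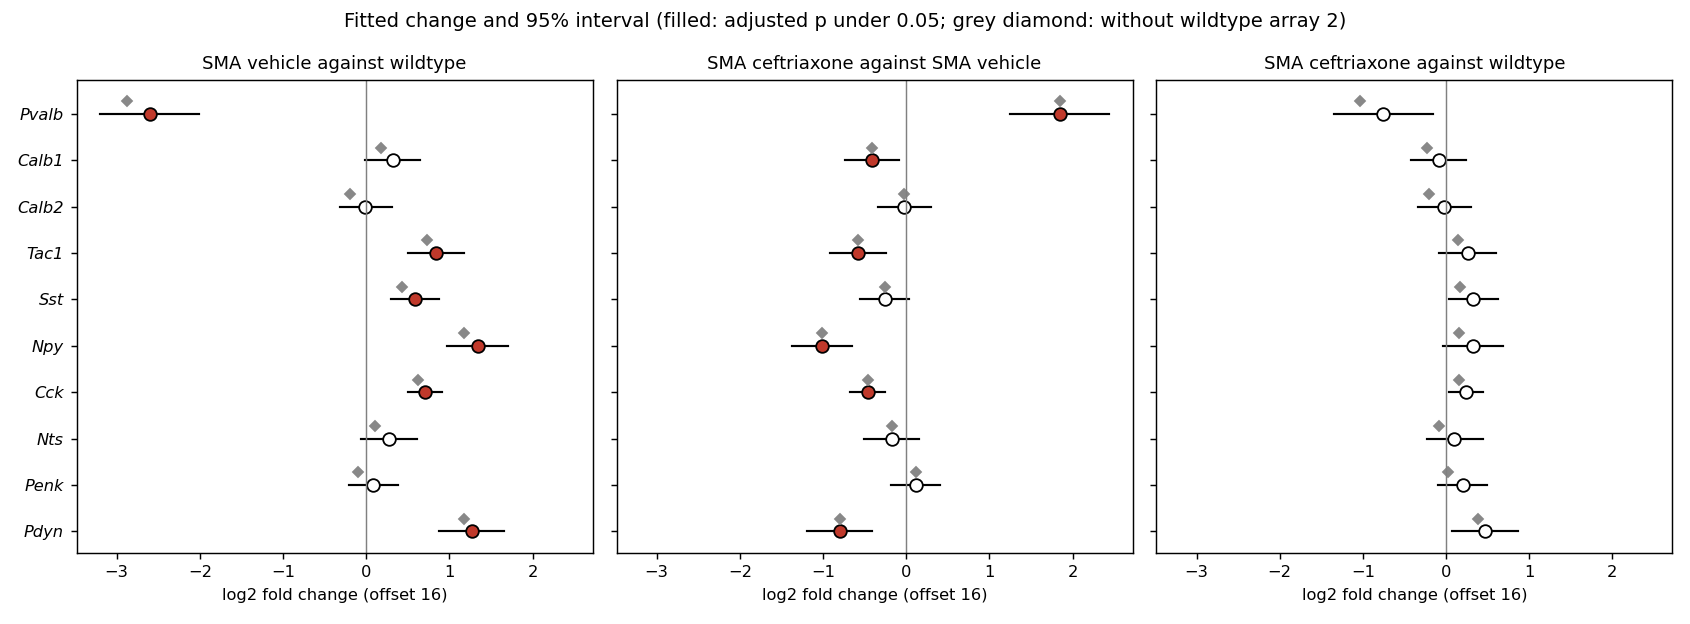
Log2 fold change of log2(signal + 16) for the 10 genes (horizontal axis) with its 95% interval, in the 3 comparisons; filled circles have an adjusted p under 0.05 and grey diamonds are the fit without wildtype array 2. The largest changes are those of Pvalb, -2.60 and 1.85, and in the third comparison 0 of 10 circles are filled.

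Ceftriaxone array 1 was the highest of its group for 7 of the 10 genes (Calb1, Calb2, Sst, Npy, Tac1, Pdyn and Nts), and array 2 the lowest for Sst, Tac1 and Pdyn. SMA vehicle array 4 was the lowest of its group for 5, among them Pvalb. With Xist as a covariate, 6 members were called in SMA vehicle against wildtype cords, beside 45.9% of all probe sets, and 5 in ceftriaxone against vehicle, beside 26.3%.

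Neuronal marker genes also differed between the groups. Counts called in the gene lists from here on stand beside the shares of all tested probe sets called. These were 47.2% for SMA vehicle against wildtype, 35.9% for ceftriaxone against vehicle and 4.21% for ceftriaxone against wildtype. Without wildtype array 2 they were 58.5%, 50.2% and 10.6% in the same order. The sum of 14 pan-neuronal markers was 59180.7 to 87210.5 for wildtype, 86117.7 to 96446.6 for SMA vehicle and 74115.0 to 82541.3 for SMA ceftriaxone cords. Of these 14, 10 rose and 2 fell in SMA vehicle cords (median log2 fold change 0.50). The largest rises were those of Gap43 (1.99) and Map2 (1.02), and the falls were those of Nefm (-0.37) and Eno2 (-0.31). With ceftriaxone 7 fell and 1 rose (median -0.27). Without wildtype array 2, 10 rose and 4 fell in SMA vehicle cords (median 0.37), with Nefl (-0.33) and Snap25 (-0.29) added to the falls. In that fit 10 fell with ceftriaxone. Myelin genes went the other way: all 8 measured fell in SMA vehicle cords (median -2.22) and all 8 rose with ceftriaxone (median 2.09). The myelin sum was 85032.8 to 136275.3, 25475.2 to 53417.5 and 99094.4 to 108882.9 in the 3 groups, and the astrocyte sum was 31796.6 to 50831.7, 27862.0 to 32653.2 and 44890.7 to 48166.4. Astrocyte genes were mixed: of 8 tested, 5 fell in SMA vehicle cords (median -0.84), while Slc1a3 (0.83) and Aldh1l1 (0.55) rose. With ceftriaxone 5 rose and 0 fell (median 0.87). Slc1a2 had a mean below the filter level in SMA vehicle cords, and without it 4 of 7 fell and 2 rose. Without wildtype array 2, 6 of 8 fell in SMA vehicle cords and 6 rose with ceftriaxone. Signals are scaled to an equal trimmed mean on each array. The part of these shifts in the members' changes was not tested.

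**Figure D3:**
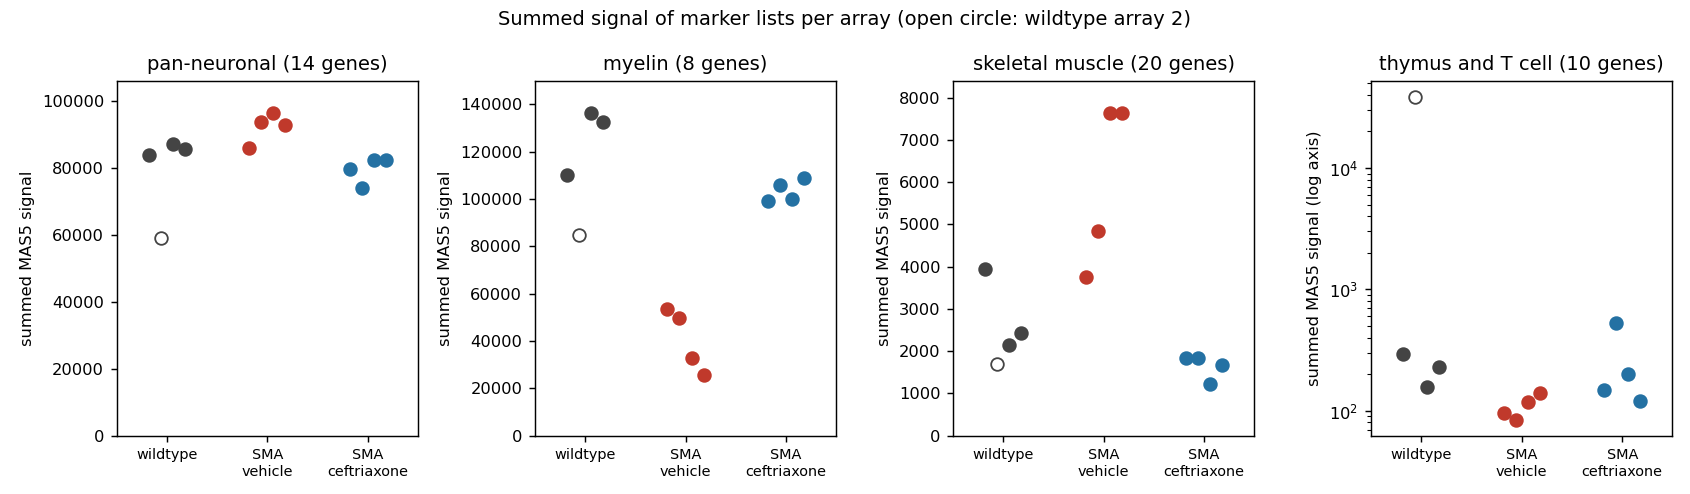
Summed MAS5 signal of 4 marker lists on every array (linear axes, and a log axis for thymus and T cell genes), with wildtype array 2 as an open circle. Myelin sums are lowest in SMA vehicle cords (25475.2 to 53417.5), and the thymus sum of wildtype array 2 is 38369.5.

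Genes of the inhibitory and excitatory transmitters were read beside the peptides. Gad1 and Gad2, which make GABA, rose in SMA vehicle cords by 0.46 and 0.50 on the log2 scale (adjusted p = 0.00554 and 0.0202), and Gphn, the glycine and GABA receptor scaffold, by 0.32 (adjusted p = 0.0178). The inhibitory genes Slc32a1 (0.17, adjusted p = 0.283) and Glra1 (-0.01, adjusted p = 0.973) did not pass, so 3 of 5 tested rose. With ceftriaxone 0 of 5 tested inhibitory genes passed limma's threshold (0 had an unadjusted p under 0.05), and without wildtype array 2 only Gad1 passed (-0.18, adjusted p = 0.0322). Slc17a6, the vesicular glutamate transporter of dorsal horn neurons, rose by 0.48 in SMA vehicle cords, and with ceftriaxone it fell by 0.27.

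Of 19 receptor genes of the 7 peptides on the array, 9 were bright enough to be tested. In SMA vehicle cords 3 rose, 3 fell and 3 did not pass, and 4 fell without wildtype array 2, where Cckbr, a cholecystokinin receptor, passed (-0.44, adjusted p = 0.00355). Npy1r, the main neuropeptide Y receptor of dorsal horn neurons, rose by 1.09 (log2, adjusted p = 0.000121) and with ceftriaxone fell by 0.53 (adjusted p = 0.0213). Its wildtype mean lies below the filter level, so it was tested through the SMA arrays, and with no filter adjusted p was 0.000287 and 0.0373. Without Npy1r, 2 of 8 receptor genes rose and 3 fell in SMA vehicle cords (62.5% called, beside 47.2% of all probe sets). Npy5r went the other way, -0.60 (adjusted p = 0.000373) and then 0.71 (adjusted p = 0.000246). The somatostatin receptors Sstr1 and Sstr2 rose by 0.91 and 0.52 (adjusted p = 0.000738 and 0.00329). Ntsr2, a neurotensin receptor known from astrocytes, fell by 1.49 (adjusted p = 0.000281) and rose with ceftriaxone by 1.65 (adjusted p = 0.000303). Sort1, sortilin, which binds neurotensin, fell by 0.41 (adjusted p = 0.032), and with ceftriaxone it passed without wildtype array 2 (0.24, adjusted p = 0.0238). Oprk1, the receptor of dynorphin, did not pass in SMA vehicle cords (0.24) but rose with ceftriaxone by 0.40 (adjusted p = 0.0392) and lay 0.64 above wildtype (adjusted p = 0.0249).

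Genes that process and pack peptides showed 3 rises and 0 falls among 10 tested in SMA vehicle cords. This share of 30% is below the 47.2% of all tested probe sets called. Those 3 were Cadps2 (0.66, adjusted p = 0.00025) and Cadps (0.33, adjusted p = 0.0143), which prime dense-core vesicles for release, and the granule protein gene Scg2 (0.64, adjusted p = 0.00207). The other 7 did not pass. With ceftriaxone Cadps2 fell by 0.36 and Cadps fell by 0.30 on the log2 scale, and Scg2 passed as well without wildtype array 2 (-0.25, adjusted p = 0.0113). Of 7 tested peptidase genes, 4 rose in SMA vehicle cords and 1 fell (71.4% called). Nln, neurolysin, which cuts neurotensin and dynorphin peptides, rose by 1.44 (adjusted p = 1.33e-06) and with ceftriaxone fell by 0.95 (adjusted p = 7.93e-05). Mme, neprilysin, which cuts enkephalin and substance P, fell by 0.39 (adjusted p = 0.0254) and rose by 0.49 with ceftriaxone (adjusted p = 0.011). With ceftriaxone 3 peptidase genes fell, and 5 without wildtype array 2, with Ace (-0.56, adjusted p = 0.0475) and Dpp3 (-0.16, adjusted p = 0.0397) added.

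Among other neuropeptide genes, 11 were tested, and 5 rose and 1 fell in SMA vehicle cords (54.5% called, beside 47.2% of all probe sets). Without wildtype array 2, 4 rose, since Adcyap1 no longer passed (adjusted p = 0.0723). Pnoc, which encodes nociceptin, rose by 1.57 (adjusted p = 1.32e-06), Cartpt by 1.33 (adjusted p = 1.98e-05) and Gal, galanin, by 1.09 (adjusted p = 1.82e-05), all on the log2 scale. Tac2, the neurokinin B gene, fell by 2.02 ± 0.30 (adjusted p = 0.000114) and rose with ceftriaxone by 1.73 (adjusted p = 0.00073). With ceftriaxone 2 of these genes rose and 3 fell, and 4 fell without wildtype array 2, where Adcyap1 passed (-0.33, adjusted p = 0.0325). The mean signal of Tac2 was 1392.8 ± 401 for wildtype, 348.8 ± 181 for SMA vehicle and 1111.7 ± 227.5 for SMA ceftriaxone cords. Against wildtype, ceftriaxone cords had higher Cartpt (1.09, adjusted p = 0.00379), Pnoc (0.62, adjusted p = 0.0149) and Gal (0.48, adjusted p = 0.0497).

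Of 14 other EF-hand genes of neurons tested, 6 rose in SMA vehicle cords and 2 fell (57.1% called, beside 47.2% of all probe sets). Hpca (hippocalcin) and Kcnip1, a subunit of potassium channels, rose by 1.17 and 1.14. S100b, a glial member of the family, fell by 1.72, and Necab3, named after its value was seen, fell by 0.89. Cabp1 also fell by 0.34 when wildtype array 2 was left out (adjusted p = 0.0329). With ceftriaxone S100b rose by 1.41 and 6 genes fell. Against wildtype, Hpca, Kcnip1, Hpcal1 and Ncald were higher in ceftriaxone cords, by 0.62, 0.59, 0.52 and 0.38. When wildtype array 2 was left out, 5 were higher and 1 lower, with Necab2 (0.35) and Necab3 (-0.80) added.

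Of 30 listed transcription factors of spinal interneuron classes on the array, 14 were bright enough to be tested. In SMA vehicle cords 12 of the 14 rose, with 0 falls. Of these 14, 4 (Lhx1, Maf, Rorb and Nr4a2) had a mean below the filter level in wildtype cords, and of the other 10, 8 rose. Leaving out wildtype array 2, 13 of 14 rose, and 10 fell with ceftriaxone. The added rise was that of Satb1, which went from -0.31 (adjusted p = 0.621) to 0.39 (adjusted p = 0.000258), so its sign rests on that array. The 4 largest rises were those of Lhx1 (2.07), which marks several developing interneuron classes, Ebf1 (1.86), Ebf3 (1.67) and Ebf2 (1.37). With ceftriaxone 9 fell (median -0.76), 7 of them among the 10 genes above the filter level in every group. Ebf1, which is among those 10, fell by 1.31. Lhx1, which is not, fell by 1.42. In the fit with no filter the adjusted p of Lhx1 was 1.03e-05 for its rise and 0.000344 for its fall. Against wildtype Ebf1 and Ebf3 were higher in ceftriaxone cords, by 0.55 and 0.73.

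**Figure D4:**
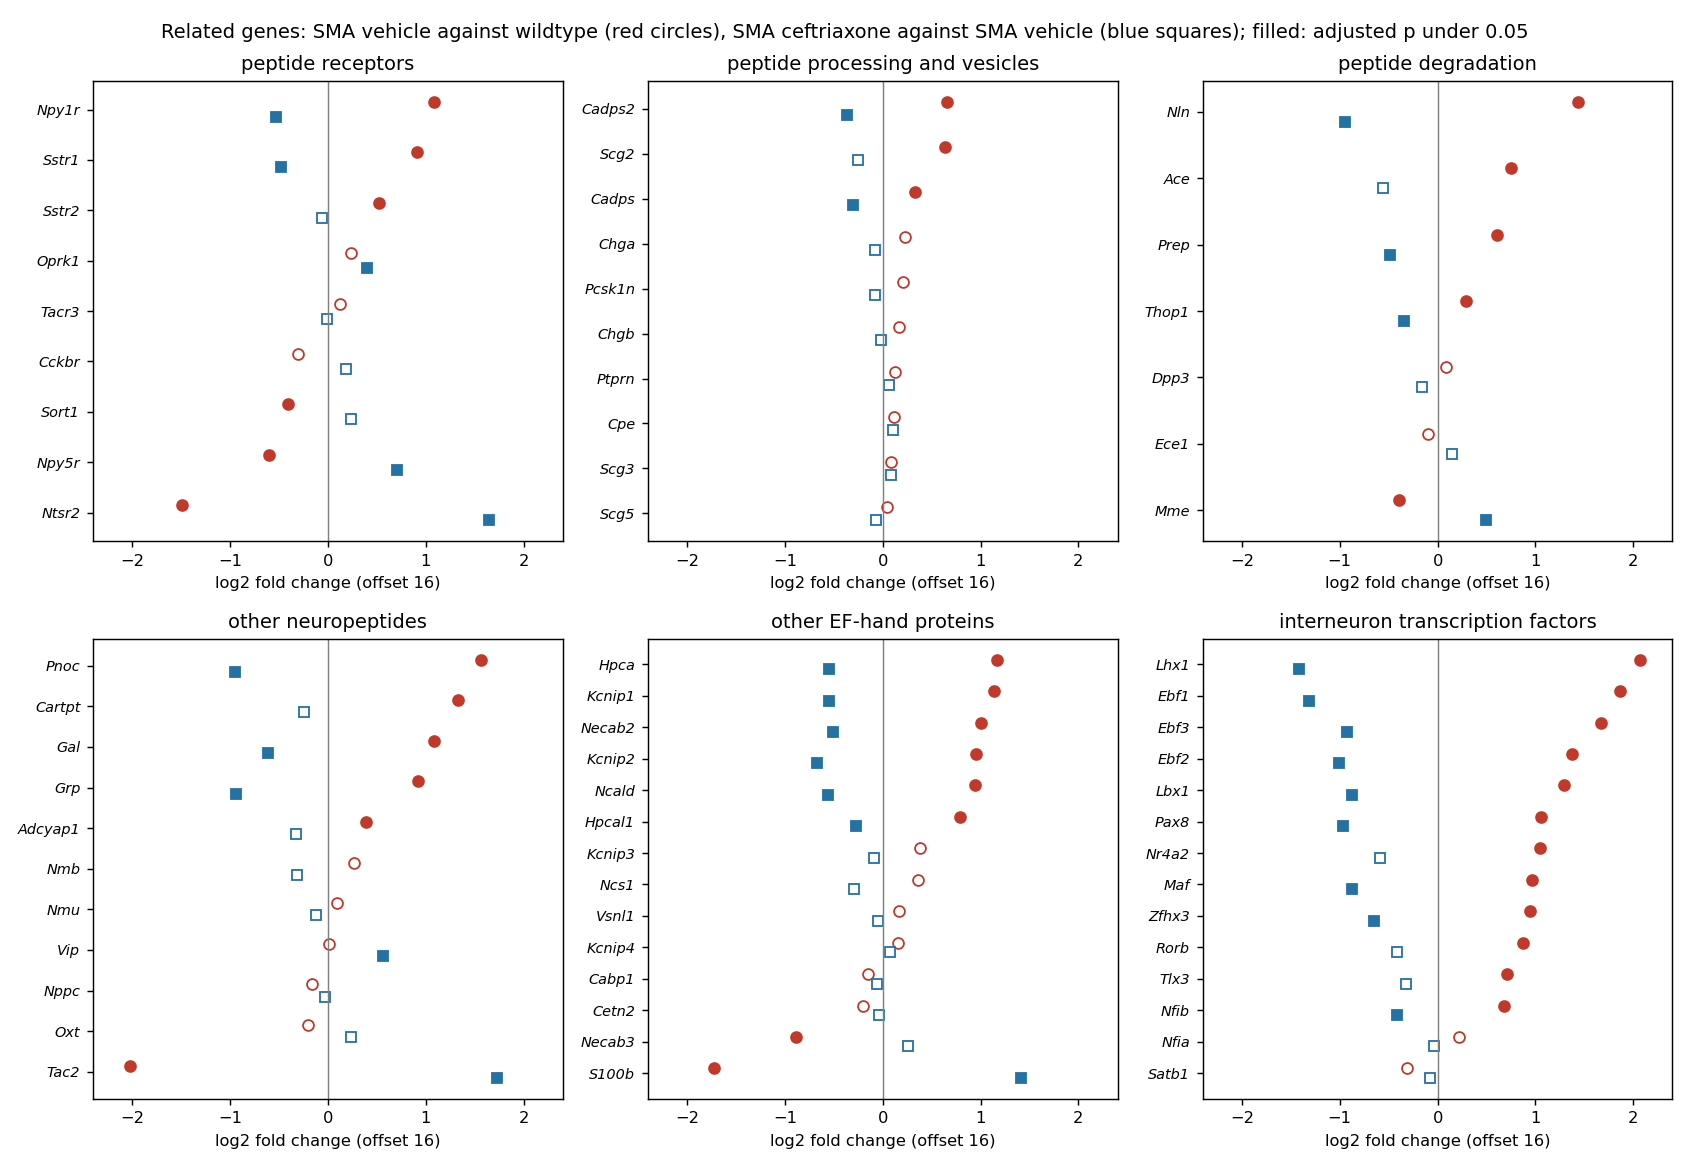
Log2 fold change of genes in 6 related lists, for SMA vehicle against wildtype (red circles) and SMA ceftriaxone against SMA vehicle (blue squares), filled where the adjusted p was under 0.05. Tac2 and Ntsr2 lie at the low end of their lists in the first comparison, -2.02 and -1.49, and Lhx1 at the high end of its list, 2.07. The wildtype mean of Lhx1 is below the filter level.

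By Pearson correlation of log2 signal over the 12 arrays, which fall into 3 groups, the gene whose pattern was most like that of Pvalb was Dexi (r = 0.995, and 0.996 over 11 arrays without wildtype array 2). For Npy it was Spa17 (0.986) and for Pdyn Nrg3 (0.985). Equal values were shared by Lor and Exoc1 for Tac1 (0.983) and by Brinp1 and Lbx1 for Cck (0.982). For Sst, Glud1 was closest (0.966, and 0.903 over 11 arrays), and for Calb1, Zfp318 (0.935 and 0.905). For Calb2 the closest was Cox8a (0.941, and 0.845 over 11 arrays) and for Penk it was Eef1a2 (0.971, and 0.796), so these last 2 values depend on wildtype array 2. For Nts it was Fbxl15 (0.958 and 0.970).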

How the data were processed

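Per the submitters' processing notes, the authors made MAS5 values; the deposited intensity is linear signal per probe set, and a test on the file found each array's trimmed mean (2% off each end) to be 699.9. The MAS5 version and detection calls are not given in the sources used here. Of 22690 probe sets, 20393 had 1 gene symbol, 691 several and 1606 none, and 20364 matched a reference gene. Without 64 control probe sets 22626 remained; those with a mean log2(signal + 16) above the 40th percentile were kept (13575; lowest 7.14, a geometric mean signal of 125). A mean per group was fitted to 12 arrays (4 per group, which limits precision; median SE 0.121) using lmFit and eBayes with an intensity trend, from limma 3.58.1 under R 4.3.3, two-sided, with Benjamini-Hochberg adjustment and a threshold of 0.05. The models were tested on simulated data. Members, lists and tests were chosen with earlier results of these data known. All members were named. Other lists gave up to 4 genes past the threshold with the largest changes per comparison, from the brightest probe set, and receptor and processing genes past it. The closest pattern was the highest correlation of log2 value. Rag1, Cd3d, Slc17a6, Xist, Eif2s3y, Hoxd10 and the marker genes were named with their values seen. Alternatives were offsets 1 and 64, quantile normalization, median centring, other filters, no trend, only the groups compared, the replicate block, Xist as covariate, gene means and leaving out each array.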

Additional observations from a re-analysis of the deposited data

Results flagged for a closer look

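Penk is flagged for single arrays far from the other 3 of their group. Its signal on wildtype array 2 was 1702.2, against 2779.2 to 2869.4 on the others, and on SMA vehicle array 3 it was 2543.1, against 2661.1 to 2681.5. The gap to the nearest array was 0.923 and 0.853 of the group's range, above Dixon's 95% critical value for 4 samples. Of 33 groups tested, chance flags about 1 in 20. The SMA vehicle value lies close to the others in absolute terms, since that group's range is narrow.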

How the results depend on the processing

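Over 23 settings and the single-gene results of the 10 members, 654 of 687 values kept direction and side of the threshold. In 14 cases the sign changed, with no value past the threshold in either setting: 12 of Calb2, 1 of Penk and 1 of Nts. On the log2 scale, Calb2 ran from -0.19 to 0.090, from -0.082 to 0.028 and from -0.20 to 0.073 in the 3 comparisons with single arrays left out, and was 0.039 after median centring in the first and 0.0056 after quantile normalization in the second. Penk ran from -0.10 to 0.15 in SMA vehicle against wildtype, and Nts from -0.076 to 0.18 in ceftriaxone against wildtype, both lowest without wildtype array 2. The 15 lost calls all belonged to Calb1 in ceftriaxone against vehicle, and the 4 gained were 2 of Sst, 1 of Pvalb and 1 of Pdyn. The members called were 6 in SMA vehicle against wildtype, 5 to 7 in ceftriaxone against vehicle and 0 to 1 in ceftriaxone against wildtype when single arrays were left out. Over all probe sets those ranges were 5502 to 7937, 3729 to 6808 and 164 to 1436, against 6401, 4879 and 572. With the mean of a gene's probe sets, which tests fewer features, 4180 and 3241 genes were called in the first comparisons. In ceftriaxone against wildtype, 236 probe sets were called after median centring, 105 with only those groups, 344 with the replicate block and 80 with Xist as a covariate; the cause was not tested. The replicate number did not pair the samples: deviations of same-numbered arrays correlated at -0.143 to 0.133. With the replicate block, 6, 6 and 0 members were called, among 6174, 4572 and 344 probe sets. Pdyn was not tested at the filter of the 60th percentile, where 5 members were called in each of the first comparisons.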
